A study of Mus musculus with 2 samples.

Results

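The mir-17-92 cluster is a run of 6 miRNA hairpins, Mir17, Mir18, Mir19a, Mir20a, Mir19b-1 and Mir92-1, carried by 1 non-coding transcript, Mir17hg, on mouse chromosome 14. The 6 hairpins were found by their gene symbols among the 1973 miRNA genes listed in both count tables, and all 6 were listed. The libraries were microRNA-seq of midbrain from B6NCrl mouse embryos at day 16.5 of gestation, with inserts below 30 nt. There was 1 group of 2 biological replicates, each a pool of healthy male and female embryos with no treatment or engineered allele named in the labels. Midbrains of 37 embryos went into replicate 2, while no source used here gives the size of the other pool. Levels are in CPM, the reads on the strand of the gene per 1000000 such reads over miRNA genes, which numbered 6151299 in replicate 1 and 5312642 in replicate 2. Of 19 listed brain and neuron miRNA genes, 18 were analysed, 16 passed 10 reads in each library and 0 had no read. That does not identify the tissue, as all 7 epithelial, 4 blood and 3 vessel genes analysed passed as well. Within the brain list, the highest mean level was 15108 CPM for Mir137. The lowest were 5.04, 3.86, 1.34 and 0.539 CPM for Mir124a-1, Mir124a-2, Mir9-2 and Mir124a-3. A read that fits several genes equally well appears to be left out of these counts. Genes with copies may thus be counted in part only, so these low values need not be the levels of the miRNAs in the tissue. What part is missing was not tested.

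A miRNA gene is transcribed as part of a long primary transcript, from which the nuclear enzyme Drosha cuts a hairpin and the cytoplasmic enzyme Dicer cuts a short duplex. The strand of the duplex that is kept, the guide, pairs with target mRNAs mainly through its seed, bases 2 to 8 from the 5′ end, and lowers their translation and stability. The mir-17-92 cluster is transcribed in proliferating cells, is a target of MYC and E2F factors, and represses promoters of cell death such as Bcl2l11. In the developing brain it is known for favouring expansion of neural progenitors, and the related clusters on chromosomes 5 and X arose by duplication.

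The guides of the 6 hairpins are shown because their seeds sort the cluster into 4 groups and because the copies of 2 of them cannot be told apart. Sequences are those of RefSeq on GRCm38.p6, 5′ to 3′, with the seed in capitals.
miR-17-5p, from Mir17: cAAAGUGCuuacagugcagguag
miR-20a-5p, from Mir20a: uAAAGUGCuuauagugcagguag
miR-18a-5p, from Mir18: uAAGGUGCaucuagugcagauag
miR-19a-3p, from Mir19a: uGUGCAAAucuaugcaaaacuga
miR-19b-3p, from Mir19b-1: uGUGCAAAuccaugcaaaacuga
miR-92a-3p, from Mir92-1: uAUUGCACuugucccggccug
Here miR-17-5p and miR-20a-5p have the same seed, and over 23 bases they differ at 2 positions counted from the 5′ end, C1U and C12U. The seed of miR-18a-5p differs from theirs at A4G, and the whole guide differs from miR-20a-5p at 4 positions. The pair miR-19a-3p and miR-19b-3p have 1 seed and differ only at U11C. The guide of Mir92-1 shares no seed with the other members. These are the arms known as guides, and the tables count a hairpin as a whole, so the reads of its arms cannot be told apart.

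On GRCm38 (mm10), as annotated in GENCODE M21, the cluster runs on the plus strand over 836 bases, chr14:115043671-115044506. Mir17 (ENSMUSG00000065508.1) is at chr14:115043671-115043754, Mir18 (ENSMUSG00000065403.1) at chr14:115043851-115043946 and Mir19a (ENSMUSG00000065416.1) at chr14:115044000-115044081. Mir20a (ENSMUSG00000065442.1) is at chr14:115044157-115044263, Mir19b-1 (ENSMUSG00000076256.1) at chr14:115044305-115044391 and Mir92-1 (ENSMUSG00000076062.1) at chr14:115044427-115044506. The gaps between neighbours were 96, 53, 75, 41 and 35 bases in that order. All 6 lie inside exon 2 of Mir17hg, and the Mir17hg gene starts 792 bases before Mir17 in GENCODE M21. RefSeq starts its record of the host gene at base 115044390, inside the cluster, so that 4 of the hairpins lie before it, Mir19b-1 overlaps it by 2 bases and Mir92-1 lies after it. The host transcript itself was not measured, since the tables list miRNA genes only.

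The 6 hairpins of this transcript were counted at levels more than 3 orders of magnitude apart. That span is set by Mir19b-1, whose guide also occurs in another miRNA gene, so part of its reads may be missing. Mir17 was the most abundant, with 19766 CPM in replicate 1 and 15604 CPM in replicate 2 (mean 17685 ± 2943, SD, n = 2), and stood at rank 12 of the 1973 genes. Mir20a followed with 7254 and 5094 CPM (6174 ± 1527), at rank 31. Mir18 had 4833 and 3650 CPM (4241 ± 837), at rank 46. The guides of these 3 hairpins all come from the 5′ arm. Mir92-1, whose guide comes from the 3′ arm and which closes the cluster, had 1275 CPM in replicate 1 and 985 CPM in replicate 2 (1130 ± 205), at rank 90. The mir-19 hairpins, which are known from mouse lymphoma as the main oncogenic part of the cluster, had the fewest reads. Mir19a had 61.1 and 42.7 CPM (51.9 ± 13.0), from 376 and 227 reads, at rank 247. Mir19b-1 had 10.4 and 6.59 CPM (8.50 ± 2.70), from 64 and 35 reads, at rank 317. The ranks are among counted reads only. Reads mapped to several places, 35.3% of all reads in replicate 1 and 36.5% in replicate 2, are not listed by gene. Genes with copies may therefore rank too low, and a rank here is not one among all miRNAs of the tissue. In tissue, fewer cells that express a miRNA and less of it per cell cannot be told apart.

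**Figure D1:**
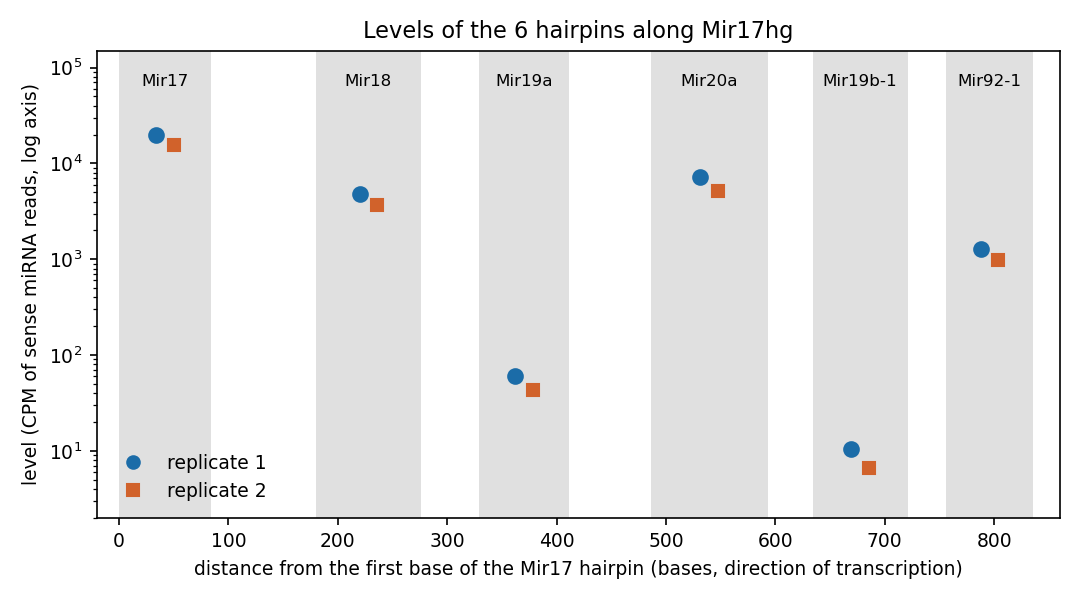
Level of each of the 6 hairpins in CPM (log axis) against the distance in bases from the start of Mir17, with replicate 1 as circles and replicate 2 as squares, drawn side by side at the middle of each hairpin; grey bands are the hairpins. Mir17 stood at 19766 and 15604 CPM, while Mir19a and Mir19b-1, in the middle and late part of the cluster, stood at or below 61.1 CPM in both libraries.

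The order Mir17, Mir20a, Mir18, Mir92-1, Mir19a, Mir19b-1 was the same in both libraries. No neighbours in that order overlapped in their ranges over the libraries. The closest pair were Mir20a and Mir18, where the lower Mir20a value, 5094 CPM, lay above the higher Mir18 value, 4833 CPM. Within a library Mir20a was 1.50 times Mir18 in replicate 1 and 1.40 times in replicate 2, a ratio that differed less between the libraries than either level did. Mir17 was 2.72 and 3.06 times Mir20a, and Mir18 was 3.79 and 3.70 times Mir92-1. The widest step lay between Mir92-1 and Mir19a, at 20.9 and 23.1 times. Mir19a was in turn 5.88 and 6.49 times Mir19b-1. From end to end, Mir17 had 1900 times the reads of Mir19b-1 in replicate 1 (exact 95% interval 1488 to 2467) and 2369 times in replicate 2 (1703 to 3401). These intervals cover counting error only, and reads of the Mir19b-1 guide that also fit Mir19b-2 appear to be outside its count. Against Mir19a, whose guide has no exact copy in the annotation, Mir17 had 323 times the reads in replicate 1 and 365 times in replicate 2. A read here is a whole short RNA, so a level in CPM does not scale with hairpin length. Per 100 bases of hairpin, all 6 genes kept their place in the order.

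Summed, the cluster made up 3.32% of the counted miRNA reads of replicate 1 (3.31 to 3.33) and 2.54% of those of replicate 2 (2.52 to 2.55). The intervals are 95% by Wilson's method, as for the shares that follow. Reads mapped to several places are outside these totals. Mir17 alone made up 59.5% of the cluster's reads in replicate 1 (59.3 to 59.8) and 61.5% in replicate 2 (61.2 to 61.7). Mir20a made up 21.8% (21.7 to 22.0) and 20.1% (19.9 to 20.3). For both, the library intervals did not overlap, Mir17 having the smaller share in replicate 1 and Mir20a the larger. Summed, Mir17 and Mir20a, the pair with a common seed, took 81.4% (81.2 to 81.6) and 81.5% (81.3 to 81.8), which overlapped. Mir18 took 14.6% and 14.4%, and Mir92-1 3.84% and 3.88%, again with overlapping intervals. The 3 hairpins whose guides come from the 5′ arm together held 95.9% of the cluster's counted reads in each library. The guides of Mir19b-1 and Mir92-1, both from the 3′ arm, also occur in another miRNA gene, and reads that fit both places appear to be left out. All these shares are therefore of counted reads, their intervals do not cover missing reads, and the split by arm is uncertain. Mir19a and Mir19b-1 together held 0.215% (0.196 to 0.237) and 0.194% (0.172 to 0.219). No read was counted on the strand opposite any of the 6 hairpins, where a count of 0 allows up to 3 reads, or 0.488 CPM in replicate 1 and 0.565 CPM in replicate 2.

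Of the 6 guides, 2 have a second copy in the annotation. The guides of Mir17, Mir18, Mir19a and Mir20a each occurred in 1 miRNA gene of GENCODE M21, searched on both strands, and in no transcript outside the cluster and its host. The guide of Mir19b-1 also occurred in Mir19b-2, and that of Mir92-1 in Mir92-2, both on chromosome X. A read that matches 2 places equally well appears to have been left out of these counts, as the tables list reads mapped to several places apart from the genes. The hairpins of both pairs are shown, with the run of bases they share in capitals, to mark where a read would fit either copy.
Mir19b-1, chr14:115044305-115044391, plus strand: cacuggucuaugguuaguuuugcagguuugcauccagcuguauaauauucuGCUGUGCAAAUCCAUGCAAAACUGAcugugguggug
Mir19b-2, chrX:52741983-52742066, minus strand: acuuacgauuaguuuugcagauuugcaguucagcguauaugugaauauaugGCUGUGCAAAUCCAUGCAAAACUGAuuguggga
Mir92-1, chr14:115044427-115044506, plus strand: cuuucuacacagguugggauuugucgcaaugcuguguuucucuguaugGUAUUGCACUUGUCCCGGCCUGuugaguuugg
Mir92-2, chrX:52741838-52741928, minus strand: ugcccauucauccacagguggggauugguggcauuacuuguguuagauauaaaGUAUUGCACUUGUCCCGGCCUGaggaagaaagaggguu
The Mir19b run was 25 bases, the whole guide of 23 and 2 bases before it. The Mir92 run was 22 bases, the whole guide of 21 and 1 base before it. A read inside the capitals fits both copies, and a read that goes past them, or that comes from the other arm, fits 1. The values of Mir19b-1 and Mir92-1 may therefore be counts of part of their reads and are uncertain as levels, and what part is missing was not tested. Mir19a had no such exact copy: its longest run shared with another miRNA hairpin was 13 bases, as for Mir17, and 0 of its 63 windows of 20 bases occurred in another hairpin. Its guide differs from miR-19b-3p at 1 base, and how reads with a mismatch were placed is not known. Whether reads of Mir19a are missing as well was not tested. The hairpins of Mir18 and Mir20a shared at most 17 bases with another. The genome itself was not searched, as only annotated transcripts were at hand.

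The make-up of the hairpins was described by length, GC content and folding energy. Their lengths ran from 80 to 107 bases and their GC content from 43.7% in Mir19b-1 to 47.5% in Mir92-1. Folding energies computed with RNAfold lay between -38.7 kcal/mol for Mir19a and -29.2 kcal/mol for Mir18. Per 100 bases of hairpin the energies ran from -47.2 kcal/mol for Mir19a to -30.4 kcal/mol for Mir18, with -36.1 kcal/mol for Mir20a. The guides differed more than the hairpins in GC content. The guide of Mir19a had the lowest GC content at 34.8%, those of Mir20a and Mir19b-1 both had 39.1%, and those of Mir18, Mir17 and Mir92-1 had 43.5%, 47.8% and 57.1%. With 6 hairpins from 1 transcript these are descriptions, and no relation to level was tested.

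Seeds carry the targeting, so each seed group was summed over all listed genes with a RefSeq mature sequence of that seed, on either arm. Of the 1894 listed genes with a symbol, 916 had a RefSeq mature sequence. The seed AAAGUGC was found in 7 genes, which held 46305 CPM in replicate 1 and 36241 CPM in replicate 2. Of their reads 58.4% (95% Wilson interval 58.2 to 58.5) and 57.1% (56.9 to 57.3) came from Mir17 and Mir20a. Nearly all the remainder came from Mir93, with 9402 and 7944 CPM, and Mir106b, with 9352 and 7287 CPM, the paralogs on chromosome 5 in an intron of the replication helicase gene Mcm7. Both exceeded Mir20a in each library, and Mir17 was 2.10 and 1.96 times Mir93 and 2.11 and 2.14 times Mir106b. Mir106a and Mir20b of chromosome X stood at 303 and 179 CPM and at 228 and 132 CPM. Mir6383, the last gene of this seed, had 0 reads, which allows up to 3 reads per library.

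The seed AAGGUGC was found in Mir18 and in Mir18b of chromosome X, which had 53.6 and 39.2 CPM. Mir18 held 98.9% of the group in replicate 1 (98.8 to 99.0) and 98.9% in replicate 2 (98.8 to 99.1). The seed GUGCAAA was found in Mir19a, Mir19b-1 and Mir19b-2, the last with 15 and 14 reads (2.44 and 2.64 CPM). The 2 members held 96.7% (94.6 to 98.0) and 94.9% (91.7 to 97.0) of it, and reads of miR-19b-3p that fit both copies appear to be outside this count. The whole group came to 74.0 and 52.0 CPM, so that the miR-19 seed was counted at 0.00740% and 0.00520% of miRNA reads. The miR-92 seed, AUUGCAC, was found in 7 genes with 6327 and 5481 CPM. Of the reads counted there, Mir92-1 held 20.2% (19.8 to 20.6) and 18.0% (17.5 to 18.4), without any reads of its guide that fit both copies. Mir92b on chromosome 3, whose guide differs from that of Mir92-1 at 2 of the 21 bases compared (U10C and G21C), had 3961 and 3646 CPM. Mir25 (413 and 343 CPM), Mir363 (416 and 293 CPM), Mir32 (203 and 174 CPM) and Mir92-2 (58.5 and 39.5 CPM) followed, and Mir367, of the pluripotency cluster of mir-302, had 0 reads. Mir92b has no copy of its guide, so its level and that of Mir92-1 may not have been counted on equal terms.

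**Figure D2:**
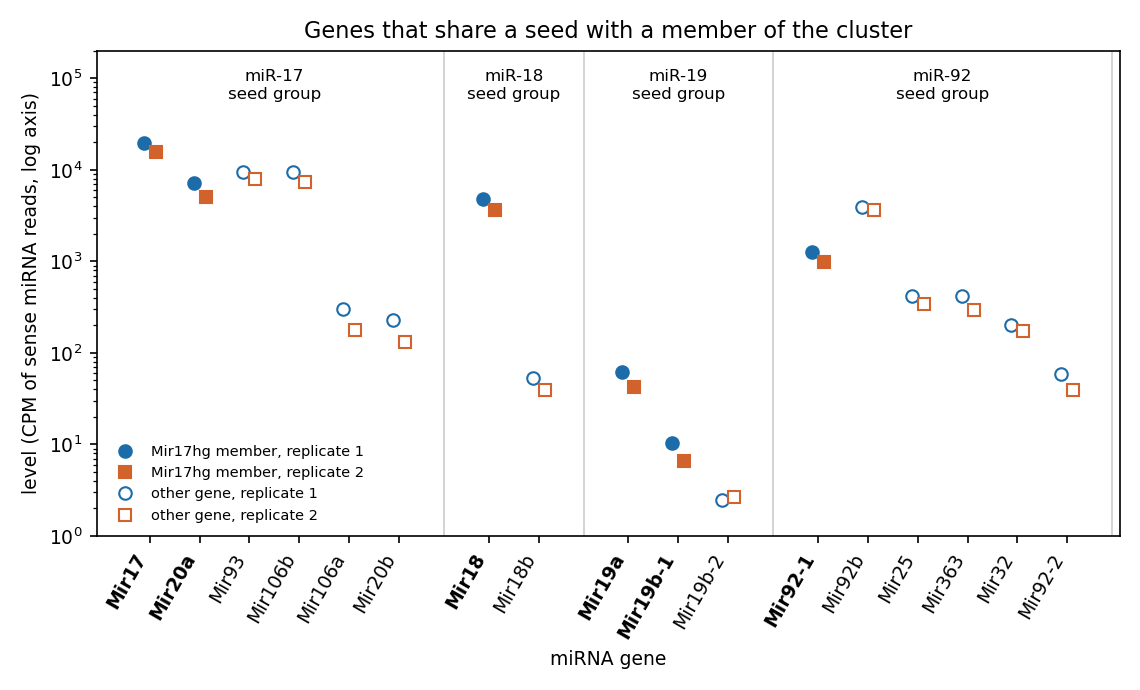
Level in CPM (log axis) of every listed gene with reads that has the seed of a member, in 4 seed groups, with members filled and named in bold, other genes open, replicate 1 as circles and replicate 2 as squares. Mir17 led the first group at 19766 and 15604 CPM, whereas in the miR-92 group Mir92b at 3961 and 3646 CPM stood above Mir92-1.

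**Figure D3:**
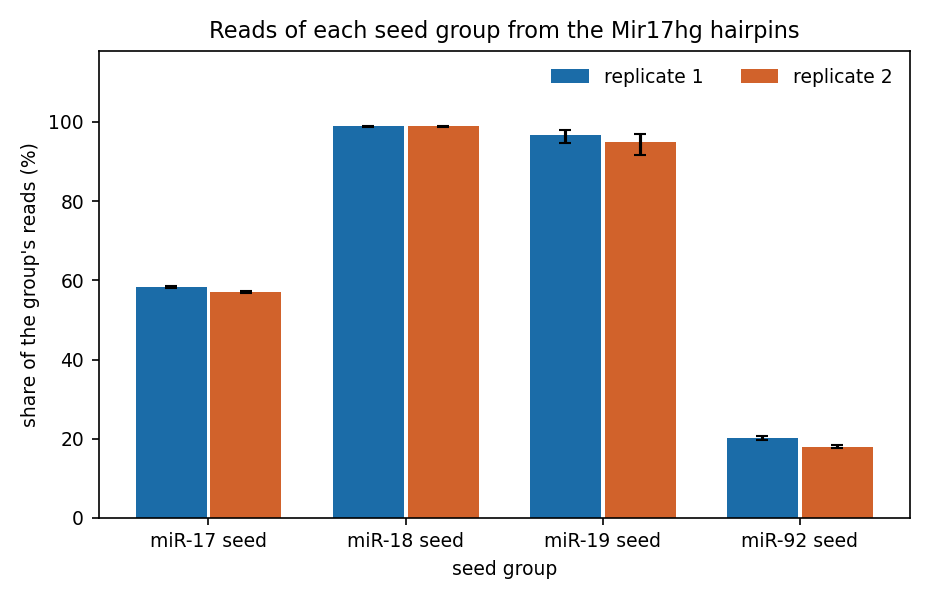
Share of each seed group's reads that came from Mir17hg hairpins, in percent, for replicate 1 and replicate 2, with 95% Wilson intervals as error bars. The share was 58.4% and 57.1% for the miR-17 seed, 98.9% in both libraries for the miR-18 seed, 96.7% and 94.9% for the miR-19 seed, and 20.2% and 18.0% for the miR-92 seed.

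Beside its paralogs, the cluster held 57.8% (57.7 to 58.0) and 56.0% (55.8 to 56.2) of the reads of all 16 genes of the clusters on chromosomes 14, 5 and X and of Mir92b. With 33199 and 25383 CPM in all, it exceeded the 3 genes on chromosome 5, at 19167 and 15574 CPM, and the 6 genes on chromosome X, at 1062 and 686 CPM, and the ranges of these sums did not overlap. The 5 members compared with a counterpart on chromosome X, all but Mir19a, were higher than it in both libraries. Mir17 was 65.2 and 87.0 times Mir106a, Mir18 was 90.1 and 93.2 times Mir18b, and Mir20a was 31.8 and 38.6 times Mir20b. For the copies with an identical guide, Mir92-1 was 21.8 and 24.9 times Mir92-2, and Mir19b-1 was 4.27 and 2.50 times Mir19b-2. These ratios compare only reads that could be placed, 15 and 14 of them for Mir19b-2, and need not hold for the guides themselves. With 2 values a gene no permutation test between genes could pass, so none was run.

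In the order of all genes by mean CPM, Mir17 stood between Mir30e (22947 ± 872 CPM) and Mir26b (16696 ± 175), Mir20a between Mir125a (6419 ± 545) and Mir143 (6033 ± 193), and Mir18 between Mir652 (4258 ± 71.3) and Mir598 (4234 ± 4.04). Mir92-1 stood between Mir337 (1137 ± 42.3) and Mir300 (1099 ± 22.9), Mir19a between Mir362 (56.4 ± 1.81) and Mir1224 (50.9 ± 16.4), and Mir19b-1 between Mir3097 (8.50 ± 0.756) and Mir147 (8.44 ± 3.69). Of these 12 neighbours, the levels of Mir30e alone did not overlap with those of the member beside it. For 10 of the 12 the SD between the pools was smaller than that of the member beside them, the exceptions being Mir1224 and Mir147. With 2 libraries an SD holds only the difference between them, so this restates the ratios given below. The same comparison was not made for other genes. With 2 libraries no correlation of patterns could be computed, so likeness here means level only.

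All 6 hairpins were higher in replicate 1 than in replicate 2, which were pools of the same group. Mir17 was 1.27-fold higher (exact 95% interval 1.26 to 1.28, log2 ratio 0.34), Mir18 1.32-fold (1.30 to 1.35, log2 0.41) and Mir92-1 1.29-fold (1.25 to 1.34, log2 0.37). Mir20a was 1.42-fold higher (1.40 to 1.45, log2 0.51), Mir19a 1.43-fold (1.21 to 1.69, log2 0.52) and Mir19b-1 1.58-fold (1.03 to 2.46, log2 0.65). In a two-sided exact binomial test of each gene's reads, adjusted by the Benjamini-Hochberg method over the 411 genes that had at least 10 reads in each library, 5 of the 6 passed at 0.05. The adjusted p was 4.47e-205 for Mir18, 6.47e-47 for Mir92-1 and 5.54e-05 for Mir19a by that exact test, and for Mir17 and Mir20a it was too small for the software to hold. Mir19b-1, with 99 reads in all, had an adjusted p of 0.0692 by the exact test and did not pass.

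That test compares 2 libraries and covers counting error only, and it passes small differences at this depth. It called 29.2% of the 411 genes higher in replicate 1 (120 genes) and 18.2% higher in replicate 2 (75 genes), or 47.4% in either direction, and the split was 95 and 90 with TMM factors. Among the 91 genes at 1000 CPM or more, the class of 4 members, 56.0% were called higher in replicate 1. When the spread between pools was allowed for, by the exact test of edgeR under a set biological coefficient of variation (BCV) of 0.1, 0 of the 6 passed, the adjusted p running from 0.313 for Mir20a to 0.625 for Mir17, and 1.70% of all genes were called higher in replicate 1. At a BCV of 0.2 again 0 passed, each with an adjusted p of 1, against 1.22% of all genes. Without adjustment over genes, p was under 0.05 for all 6 by the exact binomial test, for 3 (Mir20a, Mir19a and Mir18) by edgeR's exact test at a BCV of 0.1, and for 0 at a BCV of 0.2. The share of all 411 genes under 0.05 without adjustment was not computed, so nothing about the members is read from these counts.

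In size the members' ratios sat toward the upper end of all genes. Their median log2 ratio was 0.46, beside 0.06 over the 411 genes and 0.05 over the 91 genes at 1000 CPM or more. The SD of the log2 ratio was 0.43 over all genes, wider than any member's ratio but those of Mir20a, Mir19a and Mir19b-1, and 0.19 among the genes at 1000 CPM or more, which all 4 members in that class exceeded. The 90th percentile was 0.44 over all genes and 0.27 in the higher class. Of all tested genes 84.7% had a lower ratio than Mir17 and 94.2% a lower one than Mir19b-1, while 59.9% lay above 0. By the exact binomial test, which covers counting error only, 9 of the 10 paralogs were called higher in replicate 1, beside 29.2% of all tested genes. The summed fold was 1.31 (1.30 to 1.32) for the cluster, 1.23 (1.22 to 1.24) for the genes on chromosome 5, 1.55 (1.49 to 1.61) for those on chromosome X and 1.09 (1.07 to 1.11) for Mir92b. The counting intervals of these sums did not overlap. Of the paralogs only Mir106a and Mir20b of chromosome X, at log2 0.76 and 0.79, passed at a BCV of 0.1 as well. Their adjusted p was 0.0173 and 0.0140 by edgeR's exact test. At a BCV of 0.2 neither passed, both with an adjusted p of 1.

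**Figure D4:**
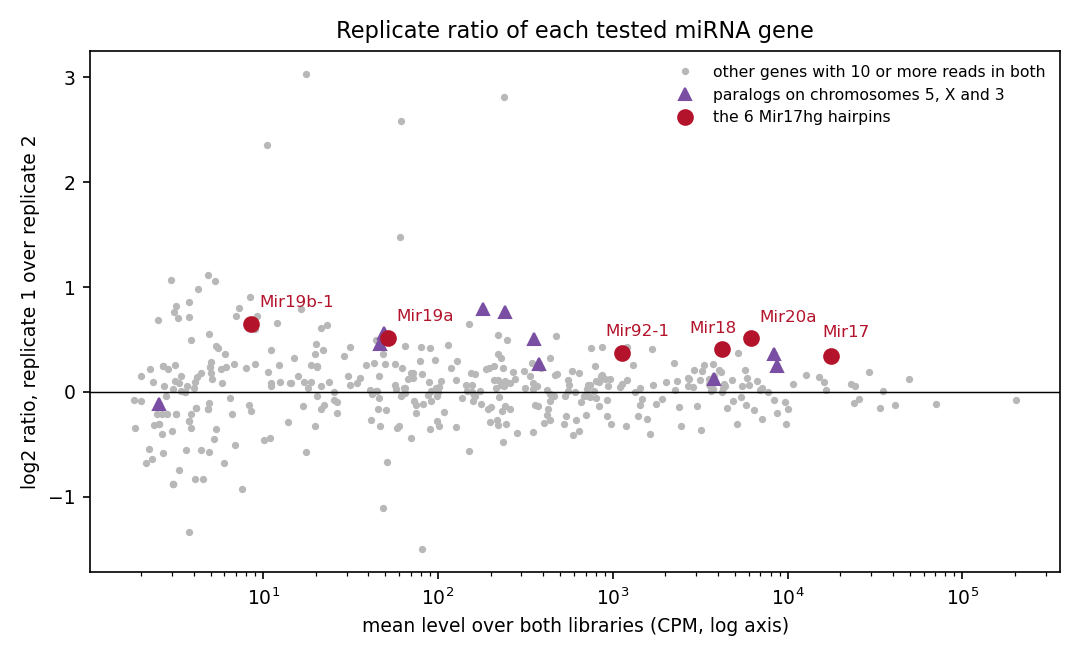
Log2 ratio of replicate 1 over replicate 2 against mean CPM (log axis) for the 411 tested genes, with the 6 Mir17hg hairpins as circles, the 10 paralogs as triangles and the other genes as dots. The 6 hairpins lie between 0.34 and 0.65, above the line of no difference, and 4 of them lie among the genes at 1000 CPM or more.

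Other lists of miRNA genes also differed between the pools. The 7 epithelial genes of the mir-200, mir-203 and mir-205 families summed to 1327 CPM in replicate 1 and 689 CPM in replicate 2, and the exact binomial test called all 7 higher in replicate 1, with 0 lacking reads, beside 29.2% of all tested genes. Mir203, with 627 and 546 CPM (log2 0.20), held most of the sum in replicate 2, while the median log2 ratio of the list was 2.35. Mir429, Mir200b, Mir200c, Mir200a and Mir141 of the mir-200 family had log2 ratios from 1.48 to 3.03. They were the 5 genes called higher in replicate 1 at a BCV of 0.2, and with Mir106a and Mir20b the 7 called at a BCV of 0.1, by edgeR's exact test. The let-7 genes, which rise as cells leave the cycle and mature, summed to 119495 and 132722 CPM. Of the 12 listed, Mirlet7e and Mirlet7f-1 were not analysed. The exact binomial test called 10 of the 10 tested higher in replicate 2, beside 18.2% of all tested genes. At a BCV of 0.1 none of the 10 passed, the lowest adjusted p being 0.541 for Mirlet7a-1 by edgeR's exact test. The pluripotent list summed to 744 and 533 CPM, with 3 of its 4 tested genes called higher in replicate 1, while Mir290a and Mir367, both defining, had 0 reads and were not tested. The brain and neuron list summed to 30138 and 29290 CPM, with 4 of its 16 tested genes called higher in replicate 1 and 7 in replicate 2. For blood the sums were 410 and 487 CPM, with 2 of 4 tested genes called higher in replicate 2, and for vessel 29337 and 30808 CPM, with 1 of 3 tested called in each direction. No gene of the blood, vessel or brain and neuron lists was at 0 in both libraries. Of the pluripotent, brain and neuron, blood and vessel lists, no gene passed at a BCV of 0.1. Reads mapped to several places are outside these sums, so genes with copies may be counted in part only. The part of these lists in the ratio of the cluster was not tested.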

How the data were processed

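MicroRNA-seq libraries of 2 pools of embryonic midbrain were analysed as 1 group of 2 replicates, so p-values measure differences between these libraries only. The deposited values are raw counts of reads per miRNA gene on mm10 with GENCODE M4, per the file headers and descriptions deposited by the authors. No source used here gives the aligner, the counting program or the adapter trimming. The tables list unmapped reads, reads mapped to several places and reads in no gene apart. These rows stayed out of library sizes and came to 15.6%, 35.3% and 3.99% of 13638577 reads in replicate 1 and to 15.2%, 36.5% and 4.14% of 12027645 reads in replicate 2.

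Sense counts were divided by their sum. Gene identifiers without version matched GENCODE M21 for 1894 of 1973 genes, and the 79 others held 6 reads in each library. Ratios used 0.5 added reads. Fold intervals are exact binomial, shares have 95% Wilson intervals, and both cover counting error only, as reads carry no molecular identifiers. Alternatives were TMM and RLE factors and the fixed-BCV exact test (edgeR 4.0.16, R 4.3.3), other totals, both strands, count minimums of 0 and 50, and single replicates. Python 3.11.15, scipy 1.17.1, pandas 2.3.3, matplotlib 3.10.9 and RNAfold 2.7.2 were used. The members, lists and tests were chosen with earlier results of these data known. The text names the members, their paralogs, genes sharing a seed, and the genes directly above and below each member. It also names genes of the brain and neuron, epithelial, let-7 and pluripotent lists. Several of these, such as the highest and lowest of the brain list, were picked by their values.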

Additional observations from a re-analysis of the deposited data

Results flagged for a closer look

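Reads mapped to several places were outside every comparison and numbered 4816290 in replicate 1 and 4391928 in replicate 2. They are not listed by gene, so any reads of miR-19b-3p and miR-92a-3p among them, or of other miRNAs with copies, were not counted here.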

How the results depend on the processing

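The levels and the share of miRNA reads were recomputed under TMM and RLE factors, another total, both strands and single replicates. The order was recomputed per 100 bases of hairpin and in single replicates, and gave the same 6 places. The ratios and the count of calls were recomputed under every scaling, total, strand setting, count minimum and BCV. With all reads in the table as the total, the levels became 7904 for Mir17, 2761 for Mir20a, 1896 for Mir18, 505 for Mir92-1, 23.2 for Mir19a and 3.80 for Mir19b-1 CPM, and the share of the cluster 1.31%, since that total also holds reads outside miRNA genes. Under TMM or RLE factors and with both strands counted, each level and the share moved by less than 1 SD. Leaving out 1 replicate gave 15604 to 19766 CPM for Mir17, 3650 to 4833 for Mir18, 42.7 to 61.1 for Mir19a, 5094 to 7254 for Mir20a, 6.59 to 10.4 for Mir19b-1 and 985 to 1275 for Mir92-1, and the share ran from 2.54% to 3.32%. It cannot be done for the ratio, which needs both libraries. The 53 recomputed ratios of members were all above 0, from 0.29 to 0.68 on the log2 scale. They reuse the same counts, and each scaling shifts all genes alike by less than any member's ratio, so the sign was not put to a test. At a fixed BCV of 0.1 or 0.2 the number of members called was 0 in place of 5, with log2 ratios of 0.34 for Mir17, 0.41 for Mir18, 0.52 for Mir19a, 0.51 for Mir20a and 0.37 for Mir92-1 that no longer passed, as these tests allow for spread between pools. Over all genes 7 and 5 were then called higher in replicate 1, in place of 120, and 2 and 1 higher in replicate 2, in place of 75. Mir19b-1 passed under no alternative, with adjusted p from 0.0517 to 1 by the exact binomial and edgeR exact tests, and fell below the minimum of 50 reads. With hairpins left out whose guide has a second copy, the members held 100% of the miR-19 seed group, then Mir19a alone, and 0% of the miR-92 seed group, because Mir92-1 is left out. No paired analysis was possible because there is 1 group. The 99 reads of Mir19b-1 limit what can be said of it.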
